A study of Mus musculus with 15 samples.

Results

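The genes described here are 10 genes of the transforming growth factor beta (TGF-beta) system: the ligands Tgfb1, Tgfb2 and Tgfb3, the receptors Tgfbr1, Tgfbr2 and Tgfbr3, the latent TGF-beta binding proteins Ltbp1 and Ltbp2, and the integrin subunits Itgav and Itgb6. They were chosen by name for their place in the release and sensing of the ligand, with earlier results of these data known. They are 10 of the 33340 genes in the count table. All 10 passed the filter on low counts, with 308 to 14271 counts per gene and library. RNA-seq of polyadenylated RNA was carried out on whole lungs of male C57BL/6 mice aged 10 to 12 weeks. Mice of the later days were given bleomycin, which breaks DNA and leaves the lung scarred, as a single dose of 5 U/kg into the trachea. The 15 libraries were 4 each at day 0 (the control, labelled untreated in 3 of its 4 libraries), day 7 and day 14, and 3 at day 21. No allele, transgene or second agent is named for any group, so by the titles a comparison with day 0 is one of treated with control lungs, and the later days differ from each other in the time since bleomycin. Whole lung is a mixture of cell types, and in such bulk samples fewer cells of a type and less RNA per cell cannot be told apart. Nothing in the labels says which animal each library came from, so p-values measure the spread between these libraries.

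TGF-beta is made as a precursor whose cut-off propeptide stays wrapped around the growth factor and keeps it latent. The latent complex is tied to the extracellular matrix by latent TGF-beta binding proteins, and it is opened mainly by integrins that contain the alpha v subunit and pull on the propeptide. Freed ligand binds the type II receptor kinase, which switches on the type I receptor kinase, and this phosphorylates SMAD proteins that enter the nucleus and turn on matrix genes. In the lung the pathway is known as a driver of scarring, and the integrin of alpha v and beta 6, found on epithelium, is a known activator there.

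Promoter sequences are shown for Tgfb2, Ltbp2, Itgav and Itgb6, because these genes were higher at all 3 later days and had an entry in the RefSeq promoter table. The table (build GRCm38.p6) held 8 of the 10 genes. Tgfb3 and Tgfbr3 had no entry. Each sequence runs 5′ to 3′ on the gene's strand and ends at the base before the annotated start, without bases that the annotation transcribes. Capitals mark CAGAC or its reverse complement GTCTG, the core letters of the SMAD box, and TATAAA, the core of the TATA box.
Tgfb2, chr1:186705990-186706239 (-): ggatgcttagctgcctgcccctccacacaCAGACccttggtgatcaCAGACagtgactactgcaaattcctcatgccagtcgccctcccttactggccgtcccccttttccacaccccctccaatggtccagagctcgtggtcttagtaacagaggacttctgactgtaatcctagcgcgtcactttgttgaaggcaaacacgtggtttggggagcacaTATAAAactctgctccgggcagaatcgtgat
Ltbp2, chr12:84876533-84876741 (-): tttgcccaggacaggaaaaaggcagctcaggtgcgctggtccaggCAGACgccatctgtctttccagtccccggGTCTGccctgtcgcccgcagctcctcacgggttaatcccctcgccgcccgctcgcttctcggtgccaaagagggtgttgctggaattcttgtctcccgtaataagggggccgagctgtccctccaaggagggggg
Itgav, chr2:83724147-83724396 (+): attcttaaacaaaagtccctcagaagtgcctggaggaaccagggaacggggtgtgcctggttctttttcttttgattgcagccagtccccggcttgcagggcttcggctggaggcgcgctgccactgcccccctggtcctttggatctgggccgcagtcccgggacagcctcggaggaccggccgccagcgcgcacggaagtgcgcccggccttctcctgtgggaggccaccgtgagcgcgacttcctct
Itgb6, chr2:60722644-60722853 (-): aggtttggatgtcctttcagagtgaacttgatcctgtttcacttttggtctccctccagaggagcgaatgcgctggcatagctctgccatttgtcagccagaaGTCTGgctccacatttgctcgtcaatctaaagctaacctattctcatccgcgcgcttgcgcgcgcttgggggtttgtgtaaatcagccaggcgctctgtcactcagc

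Tgfb2 held 2 matches to CAGAC and a TATAAA that lay 31 to 26 bases before its start. Ltbp2 held 2 matches to CAGAC within 209 bases, Itgb6 held 1 within 210 bases, and Itgav held none within 250 bases. On both strands, CAGAC was found in 42.2% and TATAAA in 12.4% of 32851 promoter windows of 250 bases, so a single CAGAC is common. TGANTCA, the letters of an AP-1 site, stood in 6.75% of the windows and in none of the 8 sequences searched for these genes. Of the genes whose promoters are not printed, Tgfbr2 and Ltbp1 held 1 CAGAC each, and Tgfb1 and Tgfbr1 held none. The GC content was 75.2% for Tgfb1 and 74.8% for Tgfbr1, against 52.4% for Itgb6, 53.6% for Tgfb2 and a median of 52.4% over all windows. These matches describe the letters only.

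The libraries held 15652008 to 18020661 counts. The title of day 0 replicate 4 calls it a control, whereas bleomycin stands in its treatment label. The title decided its group, and the comparisons with day 0 were also computed without it, which changed 1 call, that of Tgfb3 at day 7. Mitochondrial genes took 2.28% and 2.31% of the counts in day 0 replicates 1 and 2 but 4.22% and 4.04% in replicates 3 and 4. The share was 2.03% to 2.15% at day 7, 2.1% in day 14 replicate 1, 3.74% to 4.14% in the other day 14 libraries and 2.66% to 4.01% at day 21. Day 14 replicate 1 also had the highest summed level of 6 fibroblast markers, 5204 CPM (counts scaled to the size of the library), against 1676 to 2143 in the other libraries of that day. Most of that sum was the collagen Col1a2, at 4342 CPM against 1030 to 1452, while the other 5 markers summed to 862 CPM against 464 to 691. Markers of alveolar type 1 and type 2 cells and of endothelium were present in every library, with none at 0. For the comparisons with day 0, values without a library or with the mitochondrial share in the model are given below where they change a call or move a value by more than 1.5 times. Fits of libraries with a share under 2.5% held day 0 replicates 1 and 2 and all of day 7. Those over 3.5% held day 0 replicates 3 and 4 and day 14 replicates 2, 3 and 4.

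Of the 10 genes, day 7 had 5 above and 1 below day 0 past the test, day 14 had 6 above and 1 below, and day 21 had 8 above and 1 below. The call needed an adjusted p under 0.05 together with more than a 1.5 fold change in edgeR's quasi-likelihood test over 17457 genes. Of all genes tested, 8.78% were called higher and 7.36% lower at day 7, 12% and 11.2% at day 14, and 12.4% and 10.1% at day 21. With the share of mitochondrial counts as a covariate, the genes called at day 7 went from 1533 to 867 higher and from 1285 to 402 lower. The median log2 fold change of the 10 genes was 0.66 at day 7, 0.81 at day 14 and 0.94 at day 21, while that of all genes lay between 0.0096 and 0.024. Tgfb2, Ltbp2, Itgav and Itgb6 were higher and Tgfbr3 was lower at all 3 later days, and Tgfb1 passed at none of them. With glmTreat, which tests the fold change of 1.5 itself, the day 7 calls of Tgfb2 (adjusted p = 0.402), Itgav (0.101), Itgb6 (0.0597), Tgfbr2 (0.235) and Tgfbr3 (0.651) were lost and that of Ltbp2 was kept. The day 14 call of Tgfbr1 (0.393) and the day 21 calls of Tgfbr3 (0.195), Tgfbr1 (0.0990), Tgfbr2 (0.199) and Ltbp1 (0.184) were lost in that test too. Every day 7 library lay above every day 0 library for 9 of the 10 genes and below for Tgfbr3. Such a gap was found upward for 17.6% and downward for 13.2% of all genes tested. At day 14 all libraries lay above day 0 for 6 genes (16.8% of all genes) and below for 1 (14.4%), and at day 21 for 9 (19.4%) and 1 (16%). The 3 comparisons share the day 0 libraries.

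**Figure D1:**
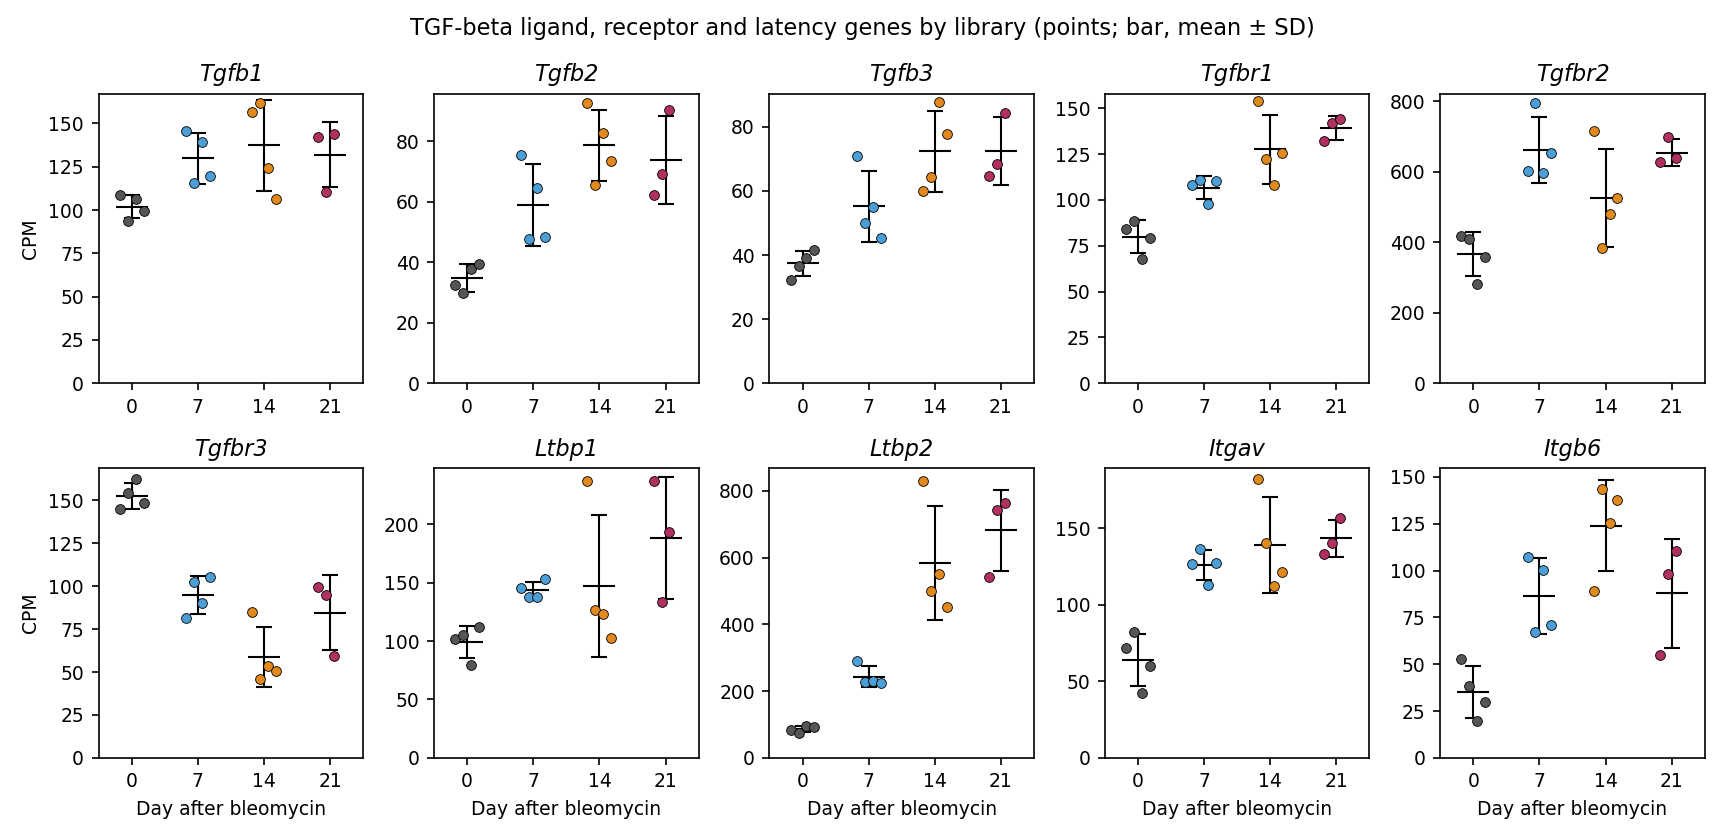
TMM-adjusted CPM of the 10 genes in each of the 15 libraries by day after bleomycin. Points are libraries and bars are the mean ± SD (n = 4, 4, 4 and 3); Tgfbr3 is the gene whose later libraries all lie below day 0, and Ltbp2 went from 75.8 to 96.4 CPM at day 0 to 451 to 830 CPM at day 14.

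Tgfb2 and Tgfb3 had the clearest changes among the ligands. Tgfb2 stood at 32.3, 29.7, 37.8 and 39.3 CPM in day 0 replicates 1 to 4, at 75.5, 47.5, 64.5 and 48.3 CPM at day 7, at 92.6, 65.6, 82.8 and 73.5 CPM at day 14 and at 62.1, 69.2 and 90.1 CPM at day 21. Every later library was above every control library. The mean was 34.8 ± 4.52 CPM (SD, n = 4) at day 0 and 78.6 ± 11.7 CPM (n = 4) at day 14, and the log2 fold change ± SE was 0.76 ± 0.17 (adjusted p = 0.00484) at day 7, 1.18 ± 0.17 (adjusted p = 0.000109) at day 14 and 1.09 ± 0.18 (adjusted p = 0.000406) at day 21. The gene lies at chr1:186622792-186705989 on the minus strand of GRCm38, and 124 of its exonic bases lie opposite an antisense gene, Gm29491, whose reads could not be separated because the strand setting of the counting is not stated.

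Tgfb3 moved in the same direction with a smaller step at day 7. Its levels were 32.4, 36.5, 39.2 and 41.6 CPM at day 0, 70.8, 50.1, 55.0 and 45.2 CPM at day 7, 59.9, 64.4, 87.7 and 77.8 CPM at day 14 and 64.8, 68.3 and 84.4 CPM at day 21, with no overlap between day 0 and any later day. It was higher at day 14 (0.95 ± 0.15, adjusted p = 0.000283) and at day 21 (0.95 ± 0.16, adjusted p = 0.000538). At day 7 its fold change of 1.48 fell short of the threshold (0.56 ± 0.15, adjusted p = 0.0153), and it passed there once the share of mitochondrial counts was a term of the model (0.70, adjusted p = 0.0242) and in 5 other alternatives. Tgfb3, at chr12:86056745-86079041 on the minus strand, shares 420 exonic bases with genes on the opposite strand.

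Tgfb1, the isoform best known from scarring, had the smallest fold changes of the 3 ligands in each of the 3 comparisons with day 0. It stood at 108.5, 93.7, 106 and 99.4 CPM at day 0, 146, 115, 139 and 119.7 CPM at day 7, 157, 162, 124 and 106 CPM at day 14 and 142, 110.2 and 144 CPM at day 21. All day 7 and day 21 libraries lay above day 0, while day 14 replicate 4 lay inside the day 0 range. The log2 fold changes were 0.35 ± 0.14 (adjusted p = 0.0733) at day 7, 0.43 ± 0.14 (adjusted p = 0.0252) at day 14 and 0.37 ± 0.15 (adjusted p = 0.0683) at day 21. Only the day 14 value passed the adjusted p, and its fold change of 1.35 did not reach 1.5.

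Per kilobase of exon, which allows levels to be compared between genes, Tgfb1 remained the ligand with the highest mean, although its range overlapped that of Tgfb3 at days 14 and 21 and Tgfb3 was above it in 2 of the 4 day 14 libraries. Its share of the summed CPM per kb of the 3 ligands was 54.3% ± 3.27 at day 0 (SD, n = 4), 49.6% ± 2.61 at day 7 (n = 4), 43.6% ± 7.13 at day 14 (n = 4) and 43.5% ± 4.46 at day 21 (n = 3). The Tgfb2 share was 15.2, 14.9, 16.6 and 17.5% in the day 0 libraries, 20.7, 17.9, 20.3 and 18.4% at day 7, 24.7, 18.1, 22.1 and 22.4% at day 14 and 18.5, 22.1 and 22.6% at day 21. All 11 later libraries were above all 4 control libraries. The exact two-sided permutation p for Tgfb2 was 0.0286 at day 7, 0.0286 at day 14 and 0.0571 at day 21, each the smallest that the group sizes allow, and adjusted over the 9 share tests each became 0.0735. The Tgfb3 share had a mean of 29.6% at day 0 and 35.5% at day 21 (exact permutation p = 0.0571, adjusted p = 0.0735), and its day 7 and day 14 values overlapped day 0. None of the 9 differences passed 0.05 after adjustment, and with these group sizes no day 21 share could.

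Both signalling receptors were higher at 2 of the 3 later days, and the co-receptor was lower at all of them. Tgfbr2, the type II receptor that first binds the ligand, stood at 418.5, 409.5, 281 and 359.6 CPM at day 0, 603, 796.5, 597.5 and 653 CPM at day 7, 716, 384, 480.4 and 526 CPM at day 14 and 629, 697.5 and 638 CPM at day 21. Day 14 replicate 2 lay inside the day 0 range, and the other 10 later libraries lay above it. Tgfbr2 was higher at day 7 (0.85 ± 0.18, adjusted p = 0.00335) and at day 21 (0.83 ± 0.19, adjusted p = 0.0038), and at day 14 its fold change of 1.43 was under the threshold (0.52 ± 0.18, adjusted p = 0.0331); without day 14 replicate 2 it passed (0.62, adjusted p = 0.0134). Without day 14 replicate 1 the day 14 value was 0.32 (adjusted p = 0.150). The day 7 call was lost once the share of mitochondrial counts was a term of the model, where the log2 fold change was 0.57 (adjusted p = 0.0374), and it was kept in the libraries with a share under 2.5% (0.66, adjusted p = 0.0129).

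Tgfbr1, the type I receptor kinase that phosphorylates SMAD proteins, stood at 84.0, 88.8, 67.7 and 79.5 CPM at day 0, 108, 111, 97.7 and 111 CPM at day 7, 154, 122, 108 and 126 CPM at day 14 and 132, 142 and 144 CPM at day 21. All later libraries lay above the day 0 libraries. The gene was higher at day 14 (0.67 ± 0.11, adjusted p = 0.000372) and day 21 (0.80 ± 0.12, adjusted p = 0.000193), and its day 7 fold change of 1.33 was under the threshold (0.42 ± 0.11, adjusted p = 0.0146). The day 14 call was lost without day 0 replicate 3 (0.58) and without day 14 replicate 1 (0.55), where the fold change fell under 1.5. With the share of mitochondrial counts as a covariate, the day 7 value was 0.23 (adjusted p = 0.155).

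Tgfbr3, or betaglycan, the co-receptor that presents ligand to the type II receptor, fell at all 3 days. Its levels were 145, 154, 163 and 149 CPM at day 0, 81.3, 102, 90.1 and 106 CPM at day 7, 84.8, 45.9, 53.7 and 50.6 CPM at day 14 and 99.7, 94.7 and 59.5 CPM at day 21. No later library reached the lowest control library, and the lowest value came at day 14. The mean went from 153 ± 7.80 CPM (SD, n = 4) to 58.8 ± 17.7 CPM (n = 4), and the log2 fold change was -0.69 ± 0.18 (adjusted p = 0.0142) at day 7, -1.38 ± 0.19 (adjusted p = 6.74e-05) at day 14 and -0.85 ± 0.20 (adjusted p = 0.00522) at day 21. Tgfbr3 lies at chr5:107106570-107289629 on the minus strand and shares 297 exonic bases with Gm43422 on its own strand. Endothelial markers were also lower in part: 2 of 6 fell at day 7, 3 at day 14 and 1 at day 21, where 7.36%, 11.2% and 10.1% of all genes were lower and 1 gene is 16.7% of the list. Their summed level was 2729 to 3148 CPM at day 0, 1917 to 2475 at day 7, 1449 to 2500 at day 14 and 1871 to 2338 at day 21, and none at 0. The part of cell makeup in the Tgfbr3 values was not tested.

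The balance of the receptors within a library was compared as a ratio, which does not depend on how libraries are scaled. The log2 ratio of Tgfbr3 to Tgfbr2 in CPM per kb was -1.21, -1.08, -0.47 and -0.95 at day 0, -2.57, -2.64, -2.41 and -2.31 at day 7, -2.75, -2.74, -2.84 and -3.05 at day 14 and -2.33, -2.56 and -3.10 at day 21. All 11 later libraries were below all 4 control libraries. The mean difference from day 0 was -1.55 at day 7, -1.92 at day 14 and -1.74 at day 21. The exact two-sided permutation p was 0.0286, 0.0286 and 0.0571, and adjusted over the 12 ratio tests 0.0686, 0.0686 and 0.098. The ratio of Tgfbr1 to Tgfbr2 lay below all day 0 libraries in 4 of 4 libraries at day 7, with a mean difference of -0.44 on the log2 scale (exact permutation p = 0.0286, adjusted p = 0.0686), and it overlapped day 0 at days 14 and 21. No ratio passed 0.05 after adjustment. The smallest p that the group sizes allow is 0.0286 at days 7 and 14 and 0.0571 at day 21. No day 21 ratio could therefore pass, and a ratio at days 7 or 14 could pass only if most of the 12 tests reached that floor.

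Ltbp2 had the largest fold change of the 10 genes at each later day with all libraries in the fit. Itgb6 was above it at day 7 without day 0 replicate 1 (log2 1.53 against 1.43) and at day 14 in the libraries with a mitochondrial share over 3.5% (2.44 against 2.39). Ltbp2 is a matrix glycoprotein of the binding protein family that, unlike Ltbp1, does not itself bind latent TGF-beta. It stood at 84.7, 75.8, 96.4 and 92.9 CPM at day 0, 290.0, 226, 230.5 and 225 CPM at day 7, 830.4, 500.5, 551 and 451 CPM at day 14 and 543, 742 and 762 CPM at day 21. Day 0, day 7 and the later days did not overlap, while day 14 and day 21 did. The fold change was 2.78 at day 7 (log2 1.47 ± 0.18, adjusted p = 8.48e-05), 6.67 at day 14 (log2 2.74 ± 0.19, adjusted p = 3.72e-07) and 7.80 at day 21 (log2 2.96 ± 0.20, adjusted p = 6.69e-07). Ltbp2 lies at chr12:84783212-84876532 on the minus strand, and 764 of its 8184 exonic bases lie opposite the antisense gene D030025P21Rik.

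Ltbp1, which binds the latent complex covalently and ties it to the matrix, changed less. It stood at 101.5, 105, 79.8 and 112 CPM at day 0, 145, 138, 138 and 153 CPM at day 7, 237, 127, 124 and 103 CPM at day 14 and 237, 133 and 193 CPM at day 21. The highest value of day 14 came from replicate 1 and that of day 21 from replicate 1, and day 14 replicate 4 lay inside the day 0 range. Ltbp1 was higher at day 21 alone (0.92 ± 0.24, adjusted p = 0.00924), and without day 21 replicate 1 that call was lost (0.68, adjusted p = 0.0742). The day 7 (0.53 ± 0.22, adjusted p = 0.0948) and day 14 (0.57 ± 0.22, adjusted p = 0.0623) values did not pass, and without day 14 replicate 4 the latter did (0.71, adjusted p = 0.0247). Without day 14 replicate 1 the day 14 value was 0.22 (adjusted p = 0.340), and in the libraries with a mitochondrial share over 3.5% it was 0.29. With the share of mitochondrial counts as a covariate, the day 7 value was 0.27 (adjusted p = 0.535).

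The log2 ratio of Ltbp2 to Ltbp1 in CPM per kb was 0.12, -0.09, 0.66 and 0.12 at day 0, 1.38, 1.10, 1.13 and 0.94 at day 7, 2.19, 2.37, 2.54 and 2.52 at day 14 and 1.58, 2.86 and 2.37 at day 21. All later libraries were above day 0, by 0.93, 2.20 and 2.07 on average (exact permutation p = 0.0286, 0.0286 and 0.0571, adjusted p = 0.0686, 0.0686 and 0.098). At day 0 the pair stood near the same level per kb, and at day 14 the ratio exceeded 2 on the log2 scale in each of the 4 libraries. Of the fibroblast markers, 2 of 6 were higher at day 7, 2 at day 14 and 3 at day 21, while 0, 1 and 1 were lower. Of all genes, 8.78%, 12% and 12.4% were higher and 7.36%, 11.2% and 10.1% lower, and 1 gene is 16.7% of this list. Col1a2 and Lum, matrix genes, were the ones higher at days 7 and 14, Pdgfrb joined them at day 21, and Tcf21 was the one lower. The summed level was 1098 to 1256 CPM at day 0, 2111 to 2518 at day 7, 1676 to 5204 at day 14 and 2332 to 3981 at day 21. Without Col1a2 the other 5 summed to 749 to 786 CPM at day 0, 774.5 to 945 at day 7, 464 to 862 at day 14 and 825 to 902 at day 21. The part of the fibroblast markers in the Ltbp2 values was not tested.

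Both subunits of the epithelial activating integrin were higher at all 3 days. Itgav, the alpha v subunit that pairs with several beta subunits, stood at 71.5, 82.1, 42.0 and 60.1 CPM at day 0, 127, 136.5, 113 and 127 CPM at day 7, 182, 140.0, 112 and 121 CPM at day 14 and 133, 140.0 and 157 CPM at day 21. No later library overlapped day 0. The log2 fold change was 0.98 ± 0.18 (adjusted p = 0.00165) at day 7, 1.12 ± 0.18 (adjusted p = 0.000293) at day 14 and 1.16 ± 0.19 (adjusted p = 0.000411) at day 21. With the share of mitochondrial counts as a covariate, the day 7 value was 0.64 (adjusted p = 0.0083), still past the test. Itgav lies at chr2:83724397-83806916 on the plus strand, with 634 exonic bases opposite Gm13684.

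Itgb6, the beta 6 subunit, stood at 52.6, 38.6, 19.6 and 30.1 CPM at day 0, 107, 67.0, 100.3 and 70.7 CPM at day 7, 89.2, 143, 125 and 138 CPM at day 14 and 55.1, 98.3 and 110.3 CPM at day 21. All later libraries lay above day 0, though day 21 replicate 1, at 55.1 CPM, was close to day 0 replicate 1, at 52.6 CPM. The log2 fold change was 1.29 ± 0.28 (adjusted p = 0.00421) at day 7, 1.82 ± 0.28 (adjusted p = 0.000211) at day 14 and 1.32 ± 0.29 (adjusted p = 0.00357) at day 21. With the share of mitochondrial counts as a term of the model, the day 7 call did not hold (1.06, adjusted p = 0.0527), and in the libraries with a mitochondrial share under 2.5% it was kept (0.91, adjusted p = 0.0215). At day 14 the value was 2.44 in the libraries with a share over 3.5%, where adjusted p was 0.000462.

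Markers of epithelium also changed in part, and counts for alveolar type 1 cells are given further below. Of 5 markers of transitional epithelium, the keratin-rich state that alveolar cells pass through after injury, 5 were higher at day 7, 4 at day 14 and 3 at day 21, against 8.78%, 12% and 12.4% of all genes, where 1 gene is 20% of the list. Their summed level was 443 to 589 CPM at day 0, 1118 to 1651 at day 7, 634.5 to 1309 at day 14 and 736 to 1076 at day 21. No marker was at 0. At days 7, 14 and 21 the highest of these sums came from the library with the lowest Itgb6 of its day (replicates 2, 1 and 1). The same libraries had the lowest alveolar type 1 marker sum of their day. Both orders were described after the values were seen. Of 6 markers of alveolar type 2 cells, 0 were called at day 7, 4 were lower at day 14 and 6 at day 21, against 7.36%, 11.2% and 10.1% of all genes lower, where 1 gene is 16.7% of the list. Their sums were 23960 to 33870 CPM at day 0 and 4066 to 8938 CPM at day 21. Their part in the Itgb6 values was not tested. The log2 ratio of Itgb6 to Itgav was 0.15, -0.49, -0.51 and -0.40 at day 0, 0.36, -0.43, 0.43 and -0.25 at day 7, -0.44, 0.63, 0.75 and 0.78 at day 14 and -0.68, 0.09 and 0.09 at day 21. Its differences from day 0 were 0.34, 0.75 and 0.15 (exact permutation p = 0.2, 0.0857 and 0.743, adjusted p = 0.267, 0.129 and 0.743), and the groups overlapped at each day.

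**Figure D2:**
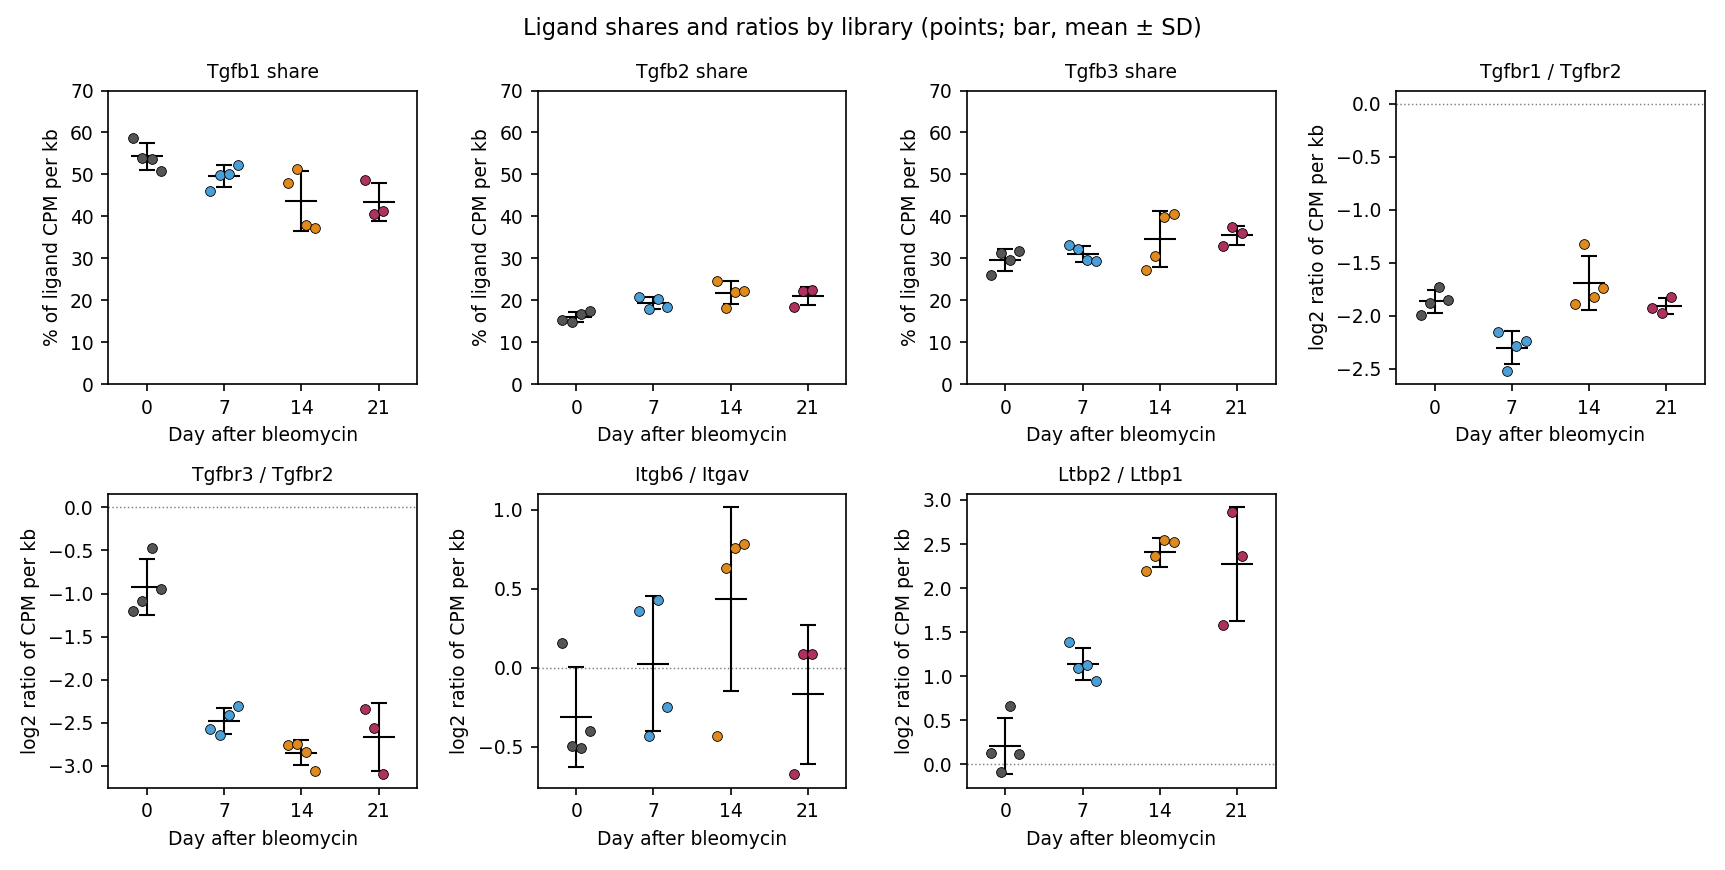
Shares of the 3 ligands in their summed CPM per kb (percent) and log2 ratios of CPM per kb within each library, by day after bleomycin. Points are libraries and bars are the mean ± SD; the Tgfb2 share and the Ltbp2 to Ltbp1 ratio lie above day 0 in all later libraries, the Tgfbr3 to Tgfbr2 ratio lies below, and the Itgb6 to Itgav ratio overlaps.

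Between day 7 and day 14, Ltbp2 rose further and Tgfbr3 fell further. Of all genes tested, 2.77% were called higher and 3.23% lower at day 14 than at day 7. The log2 difference was 1.26 ± 0.18 (adjusted p = 0.00291) for Ltbp2 and -0.69 ± 0.18 (adjusted p = 0.036) for Tgfbr3. The Ltbp2 call was kept in each fit that left out a library, while the Tgfbr3 call was lost in 7 of the 8 and in a fit of the 2 days alone (-0.68, adjusted p = 0.0504). The Tgfbr3 call was also lost with the share of mitochondrial counts as a term of the model (-0.57, adjusted p = 0.219), a share that was higher in 3 of the 4 day 14 libraries than at day 7. With glmTreat both calls were lost (adjusted p = 0.0687 for Ltbp2 and 0.898 for Tgfbr3). The other 8 genes did not pass, with log2 differences from -0.33 for Tgfbr2 to 0.52 for Itgb6, and with the share of mitochondrial counts in the model these became -0.0065 and 0.90.

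Between day 14 and day 21, 0 of the 10 genes passed in edgeR, DESeq2 or limma voom, and 1 of them, Tgfbr3, had an unadjusted p under 0.05 (log2 0.53 ± 0.20, adjusted p = 0.408). Over all genes edgeR called 0.0% higher and 0.0% lower, although 1714 had an unadjusted p under 0.05, and without the filter on low counts edgeR called 31 higher and 6 lower. DESeq2, run on 32890 genes without that filter, called 56 higher and 45 lower. The log2 differences ran from -0.49 for Itgb6 to 0.53 for Tgfbr3, with standard errors of 0.12 to 0.30 over the 10 genes. The calls are adjusted over all genes tested, so the lack of a call does not show that a gene was unchanged between these days.

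**Figure D3:**
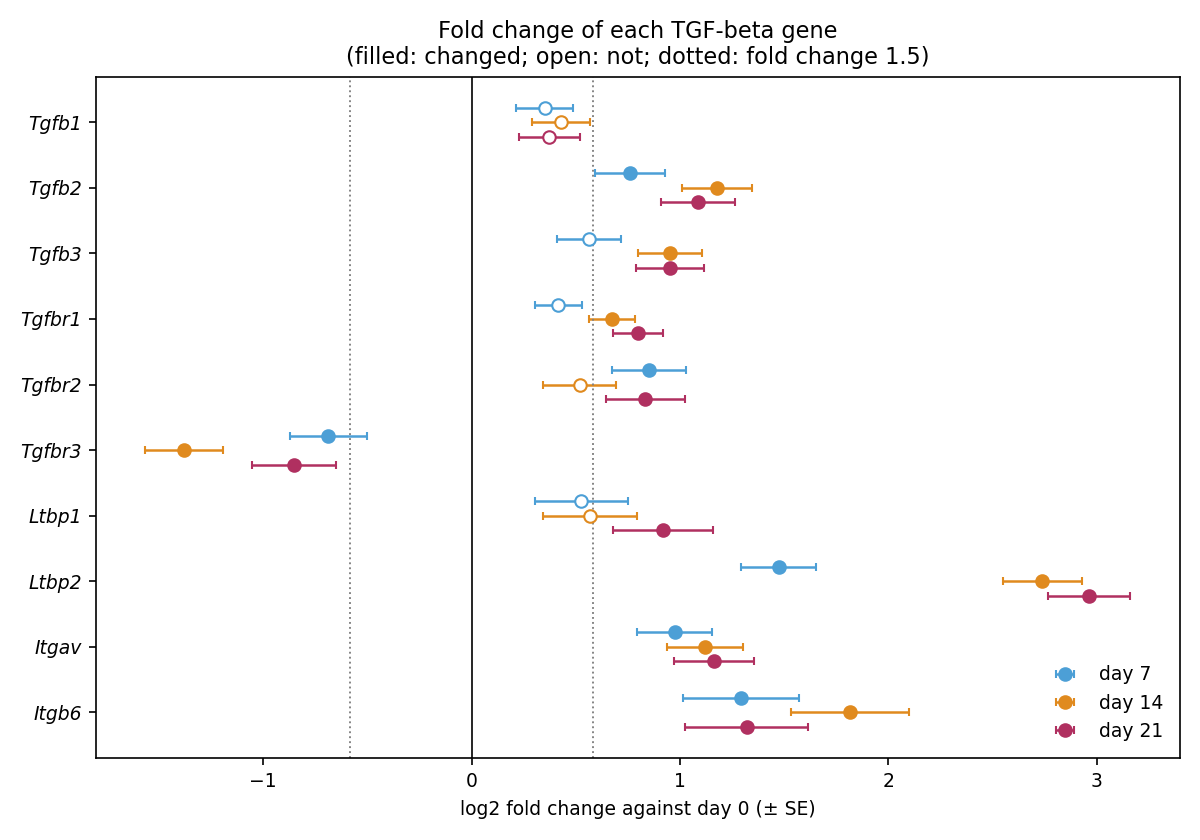
Log2 fold change against day 0 for each gene at days 7, 14 and 21, with its standard error. Filled points passed the adjusted p and the fold change of 1.5 (dotted lines) and open points did not; Ltbp2 lies farthest to the right at each day, reaching 2.96 at day 21, and Tgfbr3 is the gene left of 0.

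The order of the levels per kilobase changed with time. At day 0 Tgfbr2 was highest at 44.9 ± 7.68 CPM per kb (SD, n = 4), followed by Tgfbr3 at 23.3 ± 1.19, Tgfb1 at 20.2 ± 1.34 and Tgfbr1 at 12.2 ± 1.38, and these 4 did not overlap in their ranges. Tgfbr1, Tgfb3 (11.1 ± 1.17), Ltbp2 (10.7 ± 1.13) and Ltbp1 (9.31 ± 1.29) overlapped each with its neighbour, and so did Tgfb2 (6.00 ± 0.78), Itgav (5.95 ± 1.60) and Itgb6 (4.95 ± 1.97) at the low end. Ltbp2 was second at day 7 with 29.7 ± 3.85 CPM per kb, a range that overlapped Tgfb1 at 25.8 ± 2.92. By day 14 Ltbp2 stood at 71.3 ± 20.8 CPM per kb (n = 4) and overlapped Tgfbr2 at 64.3 ± 17.0, while Tgfbr3 had gone from the second place to the lowest mean at 8.98 ± 2.70, a range that overlapped Itgav at 12.9 ± 2.90. At day 21 Ltbp2 (83.4 ± 14.8, n = 3) and Tgfbr2 (80.0 ± 4.55) again overlapped, and Tgfb1 at 26.2 ± 3.75 was next without overlapping Tgfbr2. Exon lengths were the union of annotated exons, so a gene that uses few of its isoforms is set too low on this scale.

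Libraries of a single day differed in several of the 10 genes together. Day 14 replicate 1 was the highest of its day for 7 genes, namely Tgfb2, all 3 receptors, Ltbp1, Ltbp2 and Itgav, and the lowest for Tgfb3 and Itgb6. Day 21 replicate 1 was the lowest of its day for 7 genes and the highest for Tgfbr3 and Ltbp1, and day 21 replicate 3 was the highest for 7 genes. Summed cardiac muscle markers were 723 CPM in day 21 replicate 1, against 17.7 and 24.2 CPM in the others of its day. Its marker sums for alveolar type 2 and type 1 cells, 4066 and 1928 CPM, were the lowest of all libraries. The part of these in its values was not tested. Day 0 replicate 3 was the lowest for 5 genes. Without day 14 replicate 1 the day 14 comparison counted 5 higher and 1 lower, the loss being Tgfbr1.

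Other genes of the pathway were taken from a list of 43 genes by role, all of which were tested. The list, too, was drawn up with earlier results of these data known. At day 7, 11 were higher and 3 lower, at day 14, 22 were higher and 7 lower, and at day 21, 21 were higher and 3 lower. As shares of the 43 these were 25.6% and 6.98%, 51.2% and 16.3%, and 48.8% and 6.98%, against 8.78% and 7.36%, 12% and 11.2%, and 12.4% and 10.1% of all genes tested. A single gene is 2.33% of the list. Their median log2 fold change was 0.39, 0.62 and 0.63. At days 14 and 21 most target genes and latency genes were higher. Of 12 SMAD proteins and their regulators, 1 was called at day 7, 3 at day 14 and 2 at day 21, in either direction. These are 8.33%, 25% and 16.7% of them, against 16.1%, 23.1% and 22.5% of all genes tested.

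Among 11 genes of latency and activation, 3 were higher at day 7, 8 at day 14 and 6 at day 21, against 8.78%, 12% and 12.4% of all genes, where 1 gene is 9.09% of the list. Ltbp4 was the gene that was lower at days 14 and 21. Fbn1, the fibrillin of the microfibrils to which binding proteins attach, had 94.9 ± 19.98 CPM at day 0 and 532 ± 297 CPM at day 14 (log2 2.49 ± 0.28, adjusted p = 1.42e-05). Thbs1, the matricellular protein thrombospondin that can open the latent complex, had 336 ± 186.5 CPM at day 0 and 1184 ± 460.0 CPM at day 14 (log2 1.82 ± 0.39, adjusted p = 0.00224). Itgb3, another beta subunit that pairs with Itgav, had 39.5 ± 15.6 CPM at day 0 and 99.0 ± 38.4 CPM at day 14 (log2 1.32 ± 0.29, adjusted p = 0.0025). Ltbp4, a binding protein needed for elastic fibres, had 982 ± 38.0 CPM at day 0 and 416 ± 60.5 CPM at day 14 (log2 -1.24 ± 0.13, adjusted p = 7.40e-06), so the binding proteins Ltbp2 and Ltbp4 moved in opposite directions.

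Of 5 other receptors and receptor modulators, 1 was lower at day 7, 1 was higher and 3 were lower at day 14, and 1 was higher and 2 were lower at day 21. A single gene is 20% of this list, against 7.36%, 11.2% and 10.1% of all genes lower and 8.78%, 12% and 12.4% higher at the 3 days. Bambi, a pseudoreceptor without a kinase domain that blocks signalling, had 31.9 ± 10.4 CPM at day 0 and 9.84 ± 0.95 CPM at day 14 (log2 -1.70 ± 0.21, adjusted p = 3.28e-05) and was lower at all 3 days. Cd109, a surface co-receptor that dampens TGF-beta signalling, had 1.66 ± 0.751 CPM at day 0 and 16.4 ± 18.3 CPM at day 14 (log2 3.30 ± 0.72, adjusted p = 0.00267). The spread at day 14 was larger than the mean, and day 21 stood at 32.2 ± 26.4 CPM (n = 3). Eng (log2 -0.80 ± 0.17, adjusted p = 0.00197) and Acvrl1 (log2 -0.61 ± 0.18, adjusted p = 0.0161), the endothelial co-receptor endoglin and the type I receptor it works with, fell at day 14.

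Among 12 SMAD proteins and regulators, none of the signalling SMAD genes Smad2, Smad3 and Smad4 passed at any day, with day 14 log2 fold changes of 0.28, -0.06 and -0.22. Smad2 had an adjusted p of 0.00537, 0.0403 and 0.0334 at days 7, 14 and 21 and missed the fold change alone (1.36, 1.21 and 1.25). These 3 and Smad7 were named after their values were seen. Smad6, an inhibitory SMAD, fell at day 14 (log2 -1.09 ± 0.23, adjusted p = 0.00207), as did Smurf2, a ubiquitin ligase that targets receptors (log2 -0.61 ± 0.15, adjusted p = 0.00613). Tgif1, a repressor of SMAD-driven transcription, rose (log2 0.86 ± 0.13, adjusted p = 0.000174). The inhibitory Smad7 did not pass, with -0.27, -0.38 and -0.20 at days 7, 14 and 21 (adjusted p = 0.0371 and a fold change of 1.30 at day 14).

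Of 12 target genes, 7 were higher at day 7, 10 at day 14 and 10 at day 21, against 8.78%, 12% and 12.4% of all genes, where 1 gene is 8.33% of the list. Timp1, an inhibitor of metalloproteases, had 6.27 ± 1.22 CPM at day 0 and 129 ± 92.3 CPM at day 14 (log2 4.36 ± 0.49, adjusted p = 1.31e-05). Fn1, the matrix protein fibronectin, had a log2 fold change of 3.33 ± 0.37 (adjusted p = 1.12e-05), and the collagens Col1a1 and Col3a1 had 2.87 ± 0.44 (adjusted p = 0.000208) and 2.11 ± 0.28 (adjusted p = 5.11e-05). Nox4, an oxidase known to be induced by TGF-beta in myofibroblasts, fell from 115 ± 7.14 CPM at day 0 to 65.6 ± 7.27 at day 7 (log2 -0.81 ± 0.11, adjusted p = 0.000183) and 61.0 ± 9.22 at day 14 (log2 -0.91 ± 0.11, adjusted p = 2.64e-05). Nox4 was named after its values were seen, as the target gene that was lower. At day 21 it stood at 86.7 ± 2.02 CPM (n = 3) and did not pass, with a fold change of 1.33 under the threshold (log2 -0.41 ± 0.12, adjusted p = 0.0181). Among the 3 matrix proteoglycans that bind the ligand, Fmod (2.33 ± 0.31, adjusted p = 5.68e-05) and Bgn (0.93 ± 0.17, adjusted p = 0.000711) rose at day 14, and Dcn, named after its values were seen, did not pass (-0.42).

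**Figure D4:**
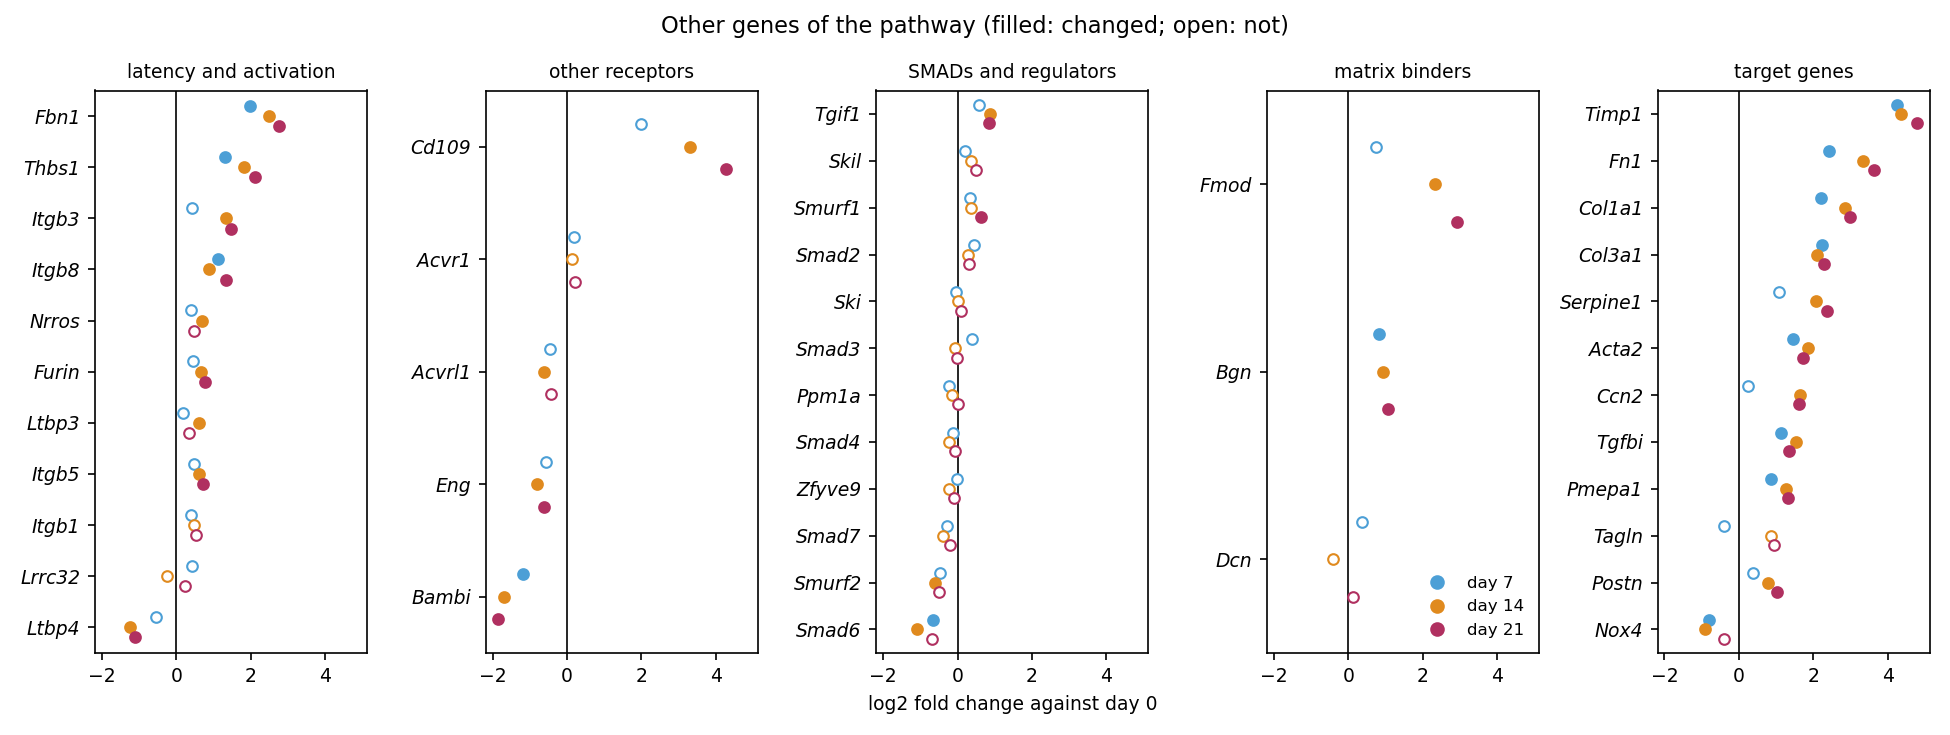
Log2 fold change against day 0 of the other 43 genes of the pathway at days 7, 14 and 21, grouped by role and ordered within a role by day 14. Filled points passed the adjusted p and the fold change of 1.5; the SMAD genes and their regulators lie between -1.09 and 0.86, the targets reach 4.80 for Timp1 at day 21, and Bambi, Ltbp4 and Nox4 lie to the left.

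The remaining marker lists, over the whole lung, are given by counts to be read against the 7.36%, 11.2% and 10.1% of all genes called lower and the 8.78%, 12% and 12.4% called higher at days 7, 14 and 21. In lists of 4 to 6 genes a single gene is 16.7% to 25% of the list, more than any of those shares. Of 5 macrophage markers, 2 were higher at day 7, 5 at day 14 and 3 at day 21. Their sums were 321 to 371.5 CPM at day 0 and 614 to 1426 CPM at day 14. Of 6 markers of alveolar type 1 cells, 1, 0 and 2 were lower at days 7, 14 and 21, with none higher, and of 4 smooth muscle markers 0, 1 and 2 were higher. Of 4 lymphocyte markers, 0, 3 and 3 were lower. Markers of tissue next to the lung varied between libraries: summed cardiac muscle markers ran from 17.7 to 723 CPM over the 15 libraries, and 0, 2 and 0 of 6 tested were lower. Summed adipose markers were 19.2 to 51.5 CPM at day 0 and 1.004 to 3.63 CPM at day 14, and 1, 4 and 3 of 4 tested were lower. The part of any of these in the values of the 10 genes was not tested.

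The genes whose course was most like that of Ltbp2 over the 15 libraries were Creg2, Ctss and Hpgds, with mean absolute differences of 0.26, 0.264 and 0.277 in log2 CPM after each gene was set to its own day 0 mean. Mean log2 differences from day 0 were 1.58, 2.5 and 2.77 for Creg2 and 1.47, 2.70 and 2.95 for Ltbp2 at days 7, 14 and 21 on that scale. For Itgb6 they were Sorcs2, Ndnf and Cenpn, with mean absolute differences of 0.26, 0.27 and 0.28. Sorcs2 stood at 1.03, 1.78 and 1.40 on that scale and Itgb6 at 1.35, 1.88 and 1.35. The libraries are shared by all these genes, and the likeness is a description of them.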

How the data were processed

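Whole mouse lungs were profiled by RNA-seq. The authors sequenced polyadenylated RNA with paired 150-base reads, aligned them with HISAT2 (2.1.0 per the labels) to mm10, counted them with HTSeq (0.6.0) and deposited the raw count of each Ensembl gene, not normalized. The strand setting of the counting is not given in the sources used here. Groups came from the sample titles; the series description gives fewer replicates at days 0, 7 and 14 than the titles do. Symbols, coordinates and exon lengths came from GENCODE M21.

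Counts were tested with edgeR 4.0.16 in R 4.3.3 (TMM factors, filterByExpr on day, glmQLFit and glmQLFTest, 15 libraries in 1 fit, Benjamini-Hochberg over 17457 genes). Calls needed an adjusted p under 0.05 and more than a 1.5 fold change. CPM are counts scaled to the TMM-adjusted library size. Errors are SE on the log2 scale and SD elsewhere. Shares and ratios were tested with exact two-sided permutation tests (scipy 1.17.1), adjusted over 9 and 12 tests. On data simulated for day 7 against day 0 (17175 genes), the fit recovered 36 of 50 genes raised by a fold change of 2 and 48 of 50 raised by 3, with 13 false calls among 16975 genes.

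The genes, the pathway list and the marker lists (alveolar type 1 and 2, transitional epithelium, fibroblast, smooth muscle, endothelium, macrophage, lymphocyte, cardiac muscle, adipose) were chosen with earlier results of these data known. The text names all 10 genes, up to 4 changed genes per pathway role by the size of the day 14 change, and the 3 genes most like Ltbp2 and Itgb6, the genes with the largest day 14 changes, predicted genes left out. Outside that rule, the fibroblast markers that were called and Smad2, Smad3, Smad4, Smad7, Nox4 and Dcn were named after their values were seen. Alternatives were DESeq2 1.42.0, limma 3.58.1 (voom), RLE factors, total counts, no filter, a filter at a mean of 1 CPM, the 2 groups alone, a replicate block, adjusted p alone, glmTreat, the mitochondrial share as a covariate or within libraries under 2.5% or over 3.5%, and each library left out. Promoter windows came from RefSeq.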

Additional observations from a re-analysis of the deposited data

Results flagged for a closer look

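Of 51 sets of 4 values, one per library of a day, 3 had a value far from the rest, where chance alone gives about 5% of sets. Ltbp2 at day 7 stood at 290.0 CPM in replicate 1 and at 225 to 230.5 CPM in the others, and all 4 lay above day 0. The log2 ratio of Itgb6 to Itgav was 0.15 in day 0 replicate 1 and -0.51 to -0.40 in the others of that day. The same ratio was -0.44 in day 14 replicate 1 and 0.63 to 0.78 in the others. That library also had the lower mitochondrial share (2.1%, against 3.74% to 4.14%) and the higher fibroblast marker sum of its day, most of it Col1a2. It had the lowest marker sums of its day for alveolar type 2 cells (6594 CPM, against 15780 to 19440) and type 1 cells (3740, against 4610 to 6220). Its endothelial sum was also the lowest (1449, against 1988 to 2500), and its macrophage sum was the highest (1426, against 614 to 1139). The part of any of these in the ratio was not tested.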

How the results depend on the processing

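The counts of changed genes against day 0 (6, 7 and 9 at days 7, 14 and 21) stayed within 1.5 times under all alternatives except glmTreat, which tests the fold change of 1.5 itself and left 1 at day 7 and 5 at day 21. Leaving out single libraries gave 6 to 7, 6 to 8 and 8 to 9. Over all 17457 genes tested, glmTreat called 525 higher and 178 lower at day 7, and 1051 higher and 703 lower at day 21. Between day 7 and day 14 the count of 2 became 0 with glmTreat, 1 with the mitochondrial share as a covariate, 1 with the 2 groups alone and 1 to 2 without single libraries. Among the 43 pathway genes, adjusted p alone, an alternative chosen after seeing the data for that list, gave 6 lower at day 7 and 5 at day 21 in place of 3 and 3. Over all 17457 genes it gave 1881 and 2317 lower in place of 1285 and 1757. With the replicate block the counts were 6, 7, 9, 2 and 0, as without it. Same-numbered libraries deviated together with correlations of -0.24 to 0.40 (median 0.041), against a median of -0.032 for libraries with different numbers. The labels do not say whether the numbers pair libraries, and these correlations cannot exclude a pairing. Of 950 fold changes recomputed, 895 kept their direction and call, 11 gained and 26 lost the call, and 18 turned direction. All 18 were between later days, in genes that had not passed there. Ltbp1 from day 7 to day 14 became -0.0141 with the replicate block and -0.0370 with limma voom. Tgfb3 from day 14 to day 21 became -0.0041 with RLE factors, -0.0156 with no filter and -0.0044 with DESeq2. The rest came from leaving out single libraries: from day 7 to day 14, Tgfb1 ran from -0.0060 to 0.18, Ltbp1 from -0.28 to 0.18 and Itgav from -0.0125 to 0.23, and from day 14 to day 21, Tgfb1 ran from -0.16 to 0.0413, Tgfb2 from -0.28 to 0.0093, Tgfb3 from -0.14 to 0.11 and Itgav from -0.0458 to 0.19. The cause was not tested. The lowest count of the 10 genes in a library was 308, and the effect of depth on their calls was not tested.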
